A study of Mus musculus with 12 samples.

Results

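The Frizzled receptors are the cell surface receptors for Wnt proteins, and 1 of them, Fzd9, lies in the chromosome segment that the mice of this study lack. All 10 mouse genes of the family, Fzd1 to Fzd10, were taken by symbol from the 17202 genes of the expression table. The 10 genes were all among the 17111 that passed the filter on low values, a mean normalized count of at least 10. The expression data are from the cortex of 12 mice, split into 4 groups of 3. The study asked whether a combination of verapamil, a calcium channel blocker, and curcumin, a phenol of turmeric, alters behavior and expression in a mouse model of Williams–Beuren syndrome.

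The CD mice of the model are heterozygous, in every cell, for a loss of the chromosome 5 segment between Gtf2i and Fkbp6, both ends included, and so keep a single copy of Fzd9. VEH-WT and VEH-CD are wild-type and CD mice that drank vehicle, which the labels call untreated. VERCUR-WT and VERCUR-CD are mice of the same genotypes that drank both drugs. Per the labels, curcumin was dosed at 60 and verapamil at 10 mg/kg/day, for 1 month from 8 weeks of age, and the cortex was taken at 16 weeks. The study's methods give a lower verapamil dose, a longer treatment and an earlier age. All mice were male and of a mostly C57BL/6J background, and the line had been crossed with the Thy1-YFP transgene, so WT and CD mice share that background. The methods name frontal cortex as the tissue.

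A Wnt protein binds the cysteine-rich outer domain of a Frizzled receptor, which then recruits Dishevelled inside the cell. With the co-receptors Lrp5 or Lrp6, this stops the breakdown of beta-catenin, which enters the nucleus and acts with TCF/LEF factors on target genes. Without them, Frizzleds also act on cell polarity and on calcium signals, and in the brain the family is known for axon guidance, synapse formation and the growth of vessels that form the blood-brain barrier. By sequence the family falls into the groups Fzd1, Fzd2 and Fzd7, then Fzd5 and Fzd8, then Fzd9 and Fzd10, then Fzd3 and Fzd6, with Fzd4 apart.

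In GENCODE M21 (GRCm38), Fzd9 is a gene of 1 exon on the minus strand at chr5:135248938-135251230, with 2293 exonic bases, of which 1776 are coding. It overlaps no other annotated gene. Baz1b, at chr5:135187264-135246129 on the plus strand, is a deleted gene beside it. Fzd1 and Fzd10 are on the same chromosome but outside the deleted segment, at chr5:4753839-4758035 and chr5:128600844-128604093. The other members are on chromosomes 1, 7, 11, 14, 15 and 18. Fzd5 overlaps the unclassified gene Gm38058 on the opposite strand, which is also in the table, so reads there may have been counted for either gene.

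The members are similar enough in coding sequence that read sharing had to be examined. The 3 longest exact runs common to the coding sequences of a pair are shown because they bear on which counts could be mixed between members, and the run of Fzd9 and Fzd10 is added as the longest that Fzd9 shared. Each stands on its own line from 5′ to 3′ on the coding strand (GENCODE M21, GRCm38).
Fzd1 and Fzd2, 47 bases, chr5:4756331-4756377 and chr11:102605740-102605786: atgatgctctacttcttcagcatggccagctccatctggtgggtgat
Fzd1 and Fzd7, 47 bases, chr5:4756964-4757010 and chr1:59483344-59483390: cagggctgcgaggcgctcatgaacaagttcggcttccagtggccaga
Fzd2 and Fzd7, 38 bases, chr11:102606064-102606101 and chr1:59484298-59484335: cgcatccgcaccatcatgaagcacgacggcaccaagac
Fzd9 and Fzd10, 24 bases, chr5:135249604-135249627 and chr5:128602608-128602631: tttatgaacgcctcaacatggact
Fzd9 shared no run longer than these 24 bases with any other member. The runs of Fzd1, Fzd2 and Fzd7 were longer. Fzd5, not shown, shared 29 bases with Fzd8, 26 with each of Fzd2 and Fzd7 and 25 with Fzd1. The read length in the study's methods is greater than the longest of these runs. A whole read within coding sequence thus cannot match a pair of members exactly. How the authors' counting treated reads that match several genes is not given in the sources used here.

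The sequence just before the start of Fzd9 is shown because Fzd9 is the deleted member, with those of Fzd4 and Fzd5, the members with the largest negative differences among the rest in VEH-CD against VEH-WT. The RefSeq promoter table (GRCm38.p6) held 6 of the 10 members. Only bases that lie before the start in both RefSeq and GENCODE are printed, 5′ to 3′ on the strand of the gene. Capitals mark the GC box GGGCGG or its reverse CCGCCC, with overlapping copies counted. The TCF/LEF core CTTTGA and the TATA box TATAAA, searched on both strands, were not in these stretches.
Fzd9, minus strand, chr5:135251231-135251297: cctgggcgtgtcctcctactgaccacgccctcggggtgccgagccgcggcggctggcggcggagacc
Fzd4, plus strand, chr7:89404116-89404354: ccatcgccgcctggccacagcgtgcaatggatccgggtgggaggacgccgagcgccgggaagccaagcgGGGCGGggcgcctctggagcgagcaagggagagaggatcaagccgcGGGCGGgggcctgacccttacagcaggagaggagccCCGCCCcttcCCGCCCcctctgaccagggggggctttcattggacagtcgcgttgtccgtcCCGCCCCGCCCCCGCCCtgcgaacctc
Fzd5, minus strand, chr1:64737752-64738000: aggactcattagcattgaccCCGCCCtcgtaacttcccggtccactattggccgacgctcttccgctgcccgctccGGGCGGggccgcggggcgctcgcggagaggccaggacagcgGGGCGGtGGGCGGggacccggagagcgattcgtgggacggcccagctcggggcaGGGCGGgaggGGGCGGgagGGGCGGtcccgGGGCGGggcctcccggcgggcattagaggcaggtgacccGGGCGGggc
Fzd4 held 7 GC boxes and Fzd5 held 9, and 32.7% of the 32851 promoters in the table held at least 1 in the 250 bases before the start. The share of promoters with as many copies was not counted. Fzd9 held none in its 67 printed bases and 1 in its 250 bases. In their 250 bases Fzd7 held 6, Fzd10 held 1 and Fzd1 held none, so several GC boxes were not particular to Fzd4 and Fzd5. CTTTGA was in 13.8% of all promoters and TATAAA in 12.4%. In its 250 bases Fzd9 had 42 CpG dinucleotides, against a median of 6 over all promoters, and 99.1% of promoters had fewer. All but 67 of these bases lie within the GENCODE gene. Fzd10 had 37, Fzd5 32, Fzd4 25, Fzd7 17 and Fzd1 12, so a count above the median was not particular to Fzd9.

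The depth of the libraries, as it follows from the step of the lowest values, was 40290000 to 56480000 counted reads per mouse. Log2 values of mice of one group had correlations across genes of 0.986 to 0.994. All 7 neuron markers and all 7 astrocyte markers of the lists used here had reads in every group. The summed level of 6 striatal genes ranged from 7343 to 32831 normalized counts between mice, with a high mouse in every group. Its medians were 15180 in VEH-WT, 15643 in VEH-CD, 7802 in VERCUR-WT and 8860 in VERCUR-CD. The part of this in the treatment comparisons was not tested. VERCUR-CD mouse 2 had the lowest sample weight, 0.282, against 0.527 to 3.29 in the other mice.

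Fzd9, a receptor known for roles in hippocampal development and bone formation, was lower in every CD mouse than in every WT mouse. The 3 VEH-WT mice had normalized counts of 303, 271 and 327, and the VEH-CD mice had 139, 99.8 and 143. In VERCUR-WT they had 353, 296 and 294, and in VERCUR-CD 106, 119 and 112. The lowest WT mouse lay far above the highest CD mouse, and the treated and vehicle mice of each genotype covered nearby ranges. The group means were 300.3 ± 27.8 (SD, n = 3) in VEH-WT, 127 ± 23.8 in VEH-CD, 314 ± 33.1 in VERCUR-WT and 112.0 ± 6.58 in VERCUR-CD. These counts rest on 113 to 376 reads per mouse.

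**Figure D1:**
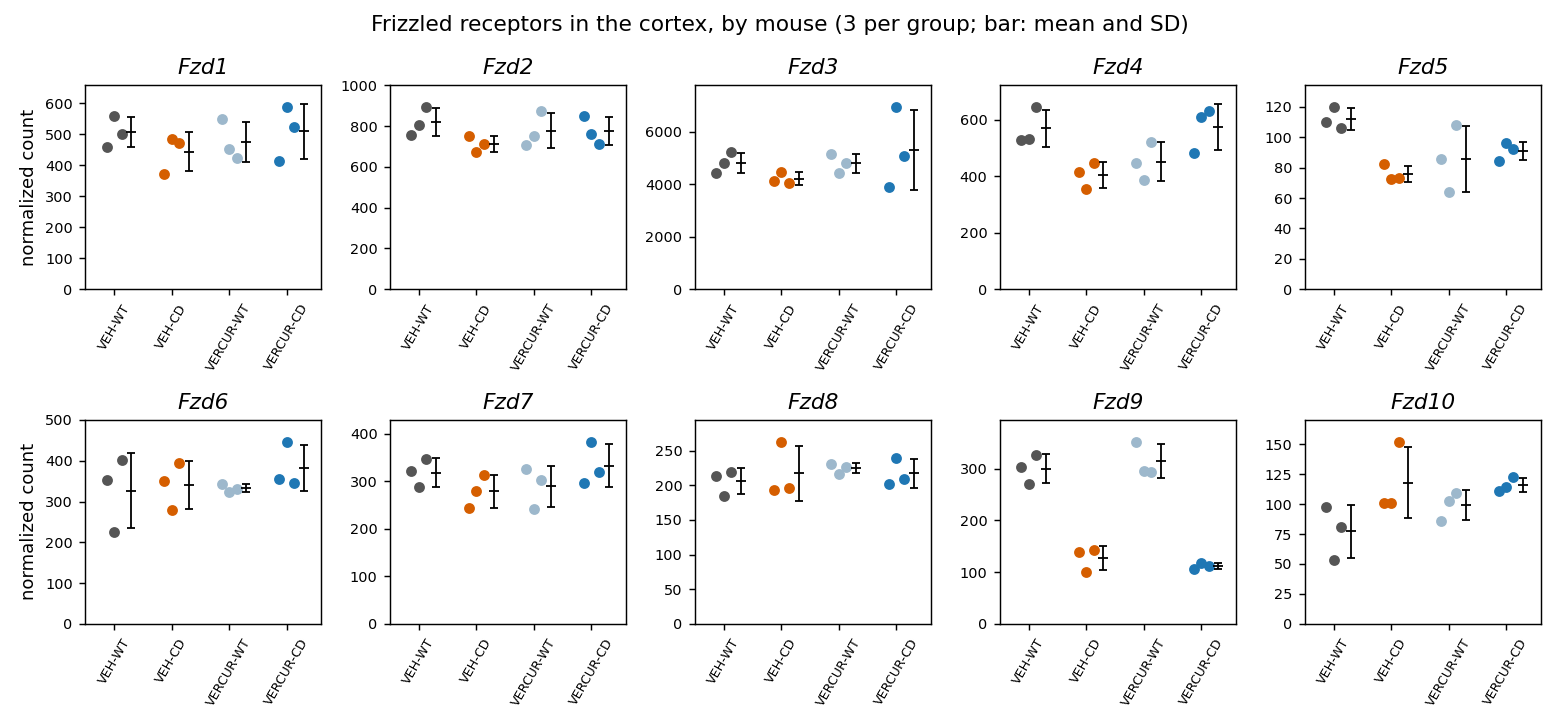
Normalized counts of the 10 Frizzled genes in each mouse, 1 panel per gene with its own axis from 0. Points are the 3 mice of a group, and the bar beside them is the group mean with its SD. Fzd9 falls from 271 to 353 in the WT mice to 99.8 to 143 in the CD mice, while in the other 9 panels no gene separates the CD from the WT mice in both treatments by such a gap.

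Fold changes were taken from limma, which fits a linear model to each gene and pools what is known of the spread, on log2(normalized count + 1), a scale that understates changes of low genes. The log2 fold change of Fzd9 in VEH-CD against VEH-WT was -1.25 with a standard error of 0.14, and its adjusted p was 0.00133 (limma, Benjamini-Hochberg over all genes tested). In VERCUR-CD against VERCUR-WT it was -1.48 (standard error 0.14, adjusted p = 0.00023). Over both treatments, with 6 CD and 6 WT mice, it was -1.36 (standard error 0.10, adjusted p = 1.08e-05). Fzd9 was thus a differentially expressed gene (DEG, adjusted p under 0.05 and a fold change past the study's bounds) in each genotype comparison. DEGs were 0.257% of the genes tested in the vehicle groups (44 genes), 0.146% in the VERCUR groups (25) and 0.321% over both (55). In cortical tissue, fewer cells of a type and less RNA per cell cannot be told apart.

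No difference of Fzd9 with treatment was detectable beyond the spread between mice. VERCUR-CD differed from VEH-CD by -0.17 on the log2 scale (95% interval -0.48 to 0.15, adjusted p = 0.867, limma), which became -0.33 without VEH-CD mouse 2 and -0.076 without VEH-CD mouse 3, and VERCUR-WT from VEH-WT by 0.06 (-0.25 to 0.38, adjusted p = 0.999). VERCUR-CD against VEH-WT, the comparison of treated mutants with healthy controls, gave -1.41 (standard error 0.14, adjusted p = 0.000356, limma), where 0.199% of genes were DEGs. The interaction, that is the genotype difference under VERCUR minus that under VEH, was -0.23 (-0.67 to 0.21, adjusted p = 0.831, limma). No gene of the table was a DEG between VERCUR-CD and VEH-CD or between VERCUR-WT and VEH-WT (0.0% of genes), and none passed for the interaction. With 1 mouse left out the counts of both treatment comparisons stayed between 0 and 3, while dropping 1 outlying value from each group of high spread gave 241 and 649 DEGs. In the fit of all values, at an unadjusted p under 0.05, 3.54%, 5.22% and 6.05% of genes passed.

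Over both treatments the fitted difference of Fzd9 lay below -1 on the log2 scale, the value that loss of 1 copy gives if each copy contributes equally. The difference of -1.36 over both treatments had a 95% interval of -1.58 to -1.14, and the two-sided moderated test against -1 gave an unadjusted p = 0.00375 (limma, a single test, n = 12 mice). Within the vehicle groups alone the interval, -1.56 to -0.93, held -1, and within the VERCUR groups, -1.79 to -1.16, it did not. The fitted level in CD mice was 0.389 of that in WT mice. Fzd9 was examined in this way with its difference, the most negative of the 19 deleted genes, already known from these data, so this p is not independent evidence.

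Fzd9 had the most negative difference of the 19 deleted genes in all 3 genotype comparisons. Over both treatments the other 18 ran from -1.21 to -0.69 with a median of -0.98, and all 18 were DEGs. Their 95% intervals held -1 in 14 genes, lay below it in 2 and above it in 2. Limk1, a kinase that acts on the actin cytoskeleton, was next to Fzd9, at -1.21 (-1.30 to -1.12), and the intervals of the pair overlap. The 3 measured deleted genes nearest to Fzd9 were closer to -1. Baz1b, a chromatin remodeller subunit, had -1.06, Bcl7b, a subunit of SWI/SNF complexes, had -0.97, and Tbl2 had -1.04 (95% intervals from -1.18 to -0.88).

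**Figure D2:**
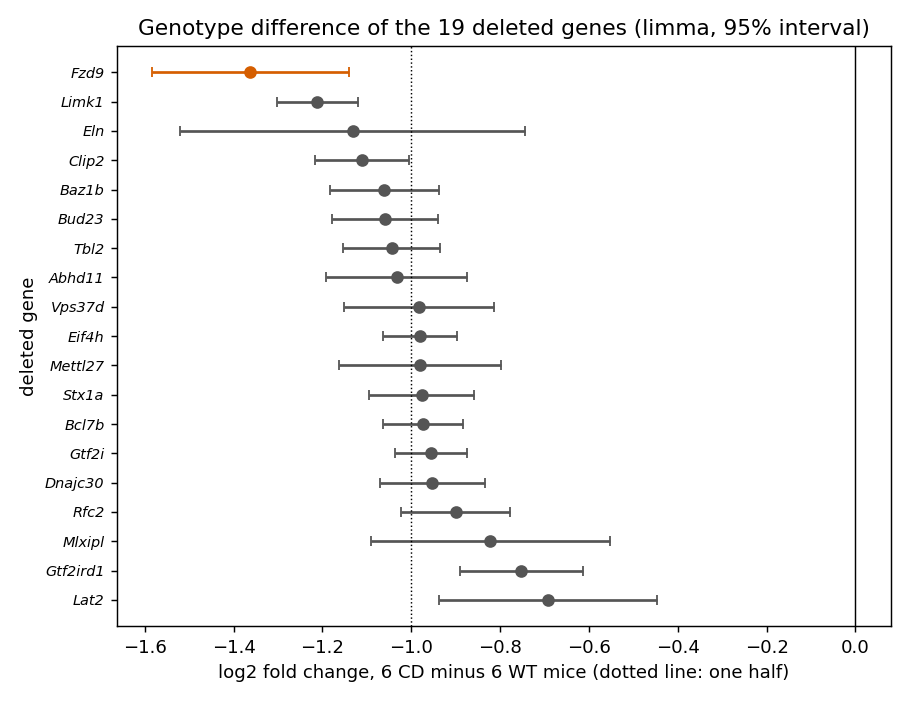
Log2 fold change of the 19 deleted genes over both treatments (x axis, 6 CD minus 6 WT mice), with genes on the y axis and bars for the 95% interval from limma. The dotted line at -1 marks loss of 1 of 2 equal copies, and Fzd9, in orange, is the leftmost point at -1.36.

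Expressed relative to the VEH-WT mean, Fzd9 was at 0.332 to 0.475 in the 3 VEH-CD mice and at 0.352 to 0.395 in the 3 VERCUR-CD mice. The median of the other 18 deleted genes was at 0.51 to 0.531 and 0.476 to 0.503 in the same mice. In every CD mouse Fzd9 was thus below that median. It was below all 18 in VEH-CD mouse 2 and in the 3 VERCUR-CD mice, while 3 genes in VEH-CD mouse 1 and 1 gene in VEH-CD mouse 3 were lower still. Fzd9 in the WT mice varied from 0.904 to 1.17.

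The genes whose profile over the 12 mice was most like that of Fzd9 were other deleted genes. Likeness was the root mean square difference of log2 values, each gene centred on its VEH-WT mean, over the 17111 genes tested. The nearest were Limk1 (0.18), Clip2 (0.25), Tbl2 (0.26), Bud23 (0.27) and Baz1b (0.27). No other Frizzled was close, the nearest being Fzd5 at 0.73, in place 306.

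Levels of different genes were compared only per length, as normalized counts per kilobase of exon, scaled to the same total of 1000000 in every mouse. In VEH-WT cortex Fzd3, a receptor for axon guidance, had the highest level at 26.8 ± 2.32 (SD, n = 3), followed by Fzd2 at 15.9 ± 1.41. Fzd9 was the third at 9.32 ± 0.698, and its range overlapped that of Fzd1 at 8.64 ± 1.07, so their order is not resolved. Fzd4 at 6.03 ± 0.672, Fzd7 at 5.01 ± 0.378 and Fzd6 at 4.81 ± 1.26 formed a middle group. Of these, Fzd7 and Fzd6 overlapped and Fzd4 did not overlap Fzd7. Fzd8 at 2.45 ± 0.169, Fzd10 at 1.68 ± 0.453 and Fzd5 at 1.16 ± 0.104 were the lowest, and Fzd10 and Fzd5 overlapped.

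In CD cortex the order changed mainly in the place of Fzd9. It was in place 7 of 10 in both CD groups, at 3.89 ± 0.59 in VEH-CD and 3.34 ± 0.163 in VERCUR-CD, and in place 3 in VERCUR-WT, at 9.53 ± 1.14. In VEH-CD its range overlapped those of Fzd4 above it and Fzd8 below it. In VERCUR-CD it overlapped neither neighbour, lying between Fzd7 and Fzd8. Fzd3, Fzd2 and Fzd5 kept places 1, 2 and 10 in all 4 groups.

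The share of Fzd9 in the summed level of the 10 Frizzleds was 11.4% ± 0.619 (SD, n = 3) in VEH-WT and 12.3% ± 0.996 in VERCUR-WT. It was 5.77% ± 1.04 in VEH-CD and 4.40% ± 0.384 in VERCUR-CD, and no CD mouse overlapped a WT mouse. The summed level of the other 9 was 67.7, 72.0 and 78.0 in the VEH-WT mice and 60.1, 67.1 and 64.5 in the VEH-CD mice. It was 71.5, 62.8 and 70.3 in the VERCUR-WT mice and 64.9, 85.2 and 69.9 in the VERCUR-CD mice. The sum without Fzd9 was thus somewhat lower in VEH-CD, with no overlap with VEH-WT, and overlapped widely in the VERCUR groups. Fzd3 made up 31.4% to 41.7% of the sum in the single mice.

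**Figure D3:**
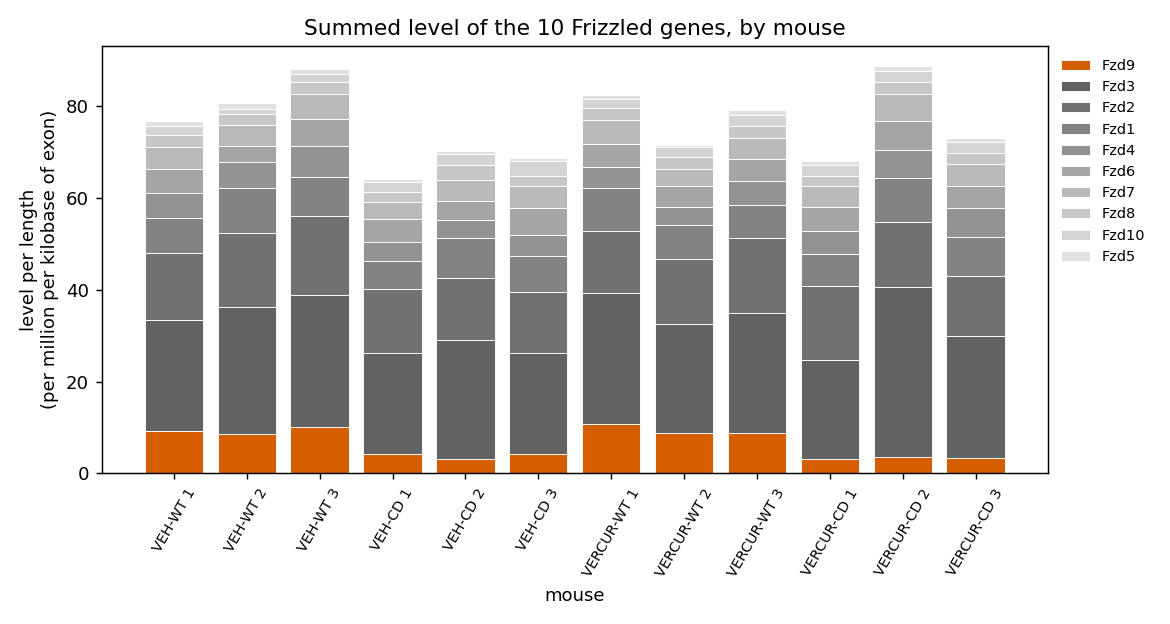
Level per length (y axis, normalized counts per kilobase of exon, scaled to a total of 1000000 per mouse) of the 10 Frizzled genes stacked for each of the 12 mice (x axis), with Fzd9 in orange at the base. The Fzd9 segment is 8.68 to 10.8 in WT mice and 3.22 to 4.31 in CD mice, and the largest grey segment is Fzd3.

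None of the other 9 Frizzleds was a DEG in any comparison, in limma with Benjamini-Hochberg adjustment. The study, with its own model and filter, differs here, and in VEH-CD against VEH-WT it called many more genes than the 44 of this fit. It lists Fzd4 and Fzd5 as deregulated in CD mice on vehicle and marks both as recovered after co-treatment, that is, not significantly different from VEH-WT. In VERCUR-CD against VEH-WT, Fzd4 was at 0.01 on the log2 scale (adjusted p = 0.994, limma), with overlap. Fzd5 was at -0.30 there (-0.67 to 0.08, adjusted p = 0.667, limma). Its VERCUR-CD mice were all below the VEH-WT mice, as in 1255 of the 17111 genes tested. In VEH-CD against VEH-WT the log2 fold changes of the 9 ran from -0.56 to 0.62 with a median of -0.19, against a median of -0.0028 over all genes tested. At an unadjusted p under 0.05, 2 were lower, Fzd4 and Fzd5, and 1 was higher, Fzd10, where 6.73% of all genes were lower and 5.07% higher. Between VEH-CD and VEH-WT the mice did not overlap in 3 lower members, Fzd2, Fzd4 and Fzd5, and in 1 higher member, Fzd10. Of all genes, 11.4% were lower and 9.28% higher without overlap.

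**Figure D4:**
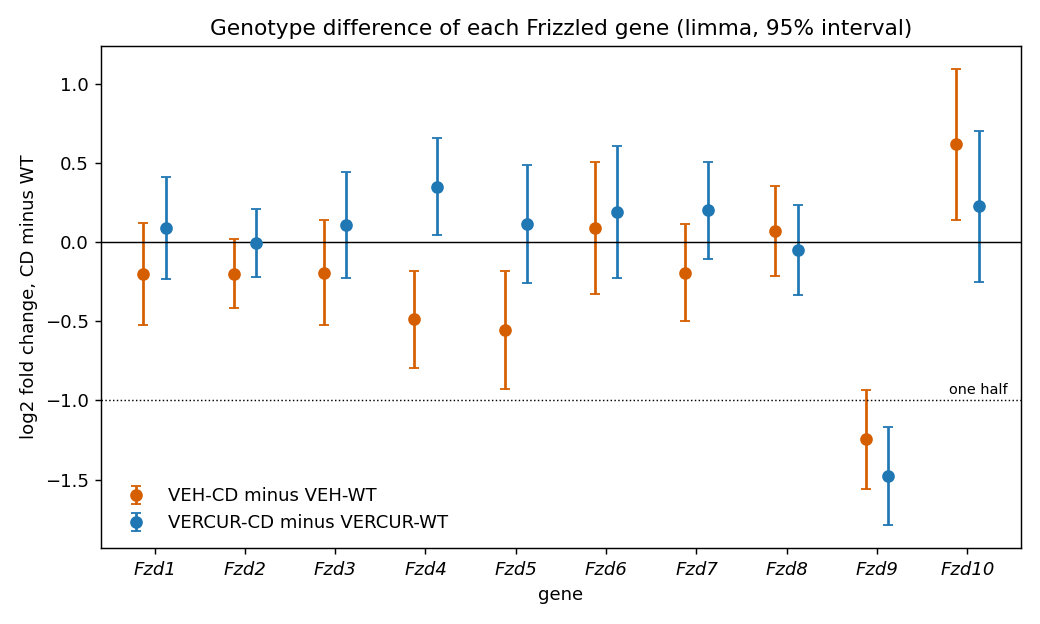
Log2 fold change of CD minus WT (y axis) for each Frizzled gene (x axis), under vehicle (orange) and under VERCUR (blue), with 95% intervals from limma. The dotted line marks -1, and Fzd9 is the only member near or below it, at -1.25 and -1.48, while Fzd4 lies at -0.49 under vehicle and 0.35 under VERCUR.

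Fzd4 is the receptor for Norrin and, with Lrp5 and Tspan12, acts in vessel growth and the blood-brain barrier. The VEH-WT mice had 529, 532 and 646 normalized counts, and the VEH-CD mice 415, 355 and 447. They were 445, 385 and 523 in VERCUR-WT and 482, 611 and 632 in VERCUR-CD. The VEH-CD mice were below every VEH-WT and every VERCUR-CD mouse, and the VERCUR-WT and VERCUR-CD mice overlapped. VERCUR-CD lay above VEH-CD without overlap in Fzd4 and Fzd5 and in 3.71% of all genes. The difference of VEH-CD against VEH-WT was -0.49 (95% interval -0.79 to -0.18, unadjusted p = 0.00444, adjusted p = 0.214, limma), which is short of the threshold. In VERCUR-CD against VEH-CD it was 0.50 (0.19 to 0.81, adjusted p = 0.867), in VERCUR-WT against VEH-WT -0.34 (adjusted p = 0.944) and in VERCUR-CD against VERCUR-WT 0.35 (adjusted p = 1.0). These comparisons share groups. The interaction was 0.84 (0.41 to 1.27, unadjusted p = 0.00111, adjusted p = 0.783, limma).

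Fzd5, a receptor for Wnt7a at synapses, had normalized counts of 110, 120 and 106 in the VEH-WT mice and of 82.3, 72.4 and 73.1 in the VEH-CD mice. It had 85.5, 63.9 and 108 in VERCUR-WT and 84.6, 96.2 and 92.4 in VERCUR-CD. The VEH-CD mice lay below all VEH-WT mice, and the 2 VERCUR groups overlapped. The difference of VEH-CD against VEH-WT was -0.56 (-0.93 to -0.18, unadjusted p = 0.00682, adjusted p = 0.236, limma), and that of VERCUR-CD against VEH-CD was 0.26 (-0.11 to 0.63, adjusted p = 0.867). VERCUR-WT also had lower values than VEH-WT, by -0.41 (adjusted p = 0.944), and the interaction was 0.67 (0.14 to 1.20, adjusted p = 0.816, limma).

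The call of these genes depended on 1 setting. Where the value farthest from the median was removed in each group with a coefficient of variation (CV) of 20% or more, Fzd4 and Fzd5 were DEGs in VEH-CD against VEH-WT (adjusted p = 0.0343 and 0.0195, limma). In that setting 972 genes were, against 44. No value of Fzd4, and none of Fzd5 in these groups, was removed by it. The study's methods also name a correction by a CV under 20%, without saying what was removed. The summed level of 8 immediate early genes, which neuronal activity induces, was 54120 to 92240 in the VEH-WT mice, in normalized counts, and 15271 to 36330 in the VEH-CD mice, and 7 of the 8 were lower without overlap. It was 26876 to 51260 in VERCUR-WT and 27773 to 46440 in VERCUR-CD. The summed level of 10 endothelial markers was 13313 to 15066 in VEH-WT and 12155 to 15486 in VEH-CD, and no marker was at 0 in a whole group. The part of either in the values of Fzd4 and Fzd5 was not tested.

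Fzd10, the group partner of Fzd9, had higher values in VEH-CD. The VEH-WT mice had 97.5, 53.1 and 80.8 normalized counts and the VEH-CD mice 101, 101 and 152. They were 85.5, 103 and 110 in VERCUR-WT and 111, 114 and 122 in VERCUR-CD. Each CD group thus lay above its own WT group, by a margin of few counts. Of all genes, 9.28% did so under vehicle and 3.91% under VERCUR, and the share that did so in both was not counted. The difference was 0.62 (0.14 to 1.10, adjusted p = 0.302) under vehicle, 0.23 (-0.25 to 0.70, adjusted p = 1.0) under VERCUR and 0.42 (0.09 to 0.76, unadjusted p = 0.0181, adjusted p = 0.394, limma) over both treatments. Its level is low, 46 to 127 reads per mouse, and without VEH-WT mouse 2 its difference under vehicle was 0.38.

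Fzd1, Fzd2 and Fzd7, which form a group by sequence, had slightly lower values in VEH-CD than in VEH-WT. The differences were -0.20 (-0.52 to 0.12), -0.20 (-0.42 to 0.02) and -0.19 (-0.50 to 0.11) on the log2 scale, with adjusted p of 0.621, 0.462 and 0.616 in limma. Without VEH-CD mouse 1 those of Fzd1 and Fzd7 were -0.077 and -0.098. The VEH-WT mice had 758, 804 and 894 normalized counts of Fzd2 and the VEH-CD mice 752, 671 and 713, so that its groups were just apart. Fzd1 ranged from 371 to 589 and Fzd7 from 242 to 384 over the 12 mice, with overlap in every comparison between groups. Under VERCUR the differences were 0.09, -0.0043 and 0.20, with adjusted p of 1.0 in each (limma).

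Fzd3 and Fzd6, the members known for planar cell polarity and for axon and hair patterning, gave no difference that passed the test. Fzd3 had 4446, 4801 and 5212 normalized counts in the VEH-WT mice, 4118, 4484 and 4037 in VEH-CD, 5162, 4421 and 4819 in VERCUR-WT and 3913, 6954 and 5065 in VERCUR-CD. VERCUR-CD mouse 2, the mouse of lowest weight, stood above all others. With it the difference of VERCUR-CD against VERCUR-WT was 0.11 (-0.23 to 0.44), and without it -0.11, neither past the threshold. In that mouse the summed levels of astrocyte and neuron markers were also the highest of the 12, at 306111 and 640869. The part of this in the value of Fzd3 was not tested. Fzd6 ranged from 225 to 447 over the 12 mice, and its difference was 0.09 (-0.33 to 0.51) under vehicle and 0.19 (-0.23 to 0.61) under VERCUR. The lowest VERCUR-CD mouse, at 345, was just above the highest VERCUR-WT mouse, at 343, as in 3.91% of all genes.

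Fzd8, the group partner of Fzd5, had 185 to 220 normalized counts in the VEH-WT mice, 193 to 263 in VEH-CD, 217 to 230 in VERCUR-WT and 202 to 240 in VERCUR-CD. The groups overlapped, and its difference was 0.07 (-0.22 to 0.35) under vehicle and -0.05 (-0.34 to 0.23) under VERCUR. Over both treatments the differences of the 9 members ran from -0.22 to 0.42, and for Fzd1, Fzd2, Fzd3, Fzd4, Fzd7 and Fzd8 the 95% intervals lay between -0.28 and 0.22. For Fzd5, Fzd6 and Fzd10 the intervals were wider, from -0.48 to 0.76. These are averages over the treatments and do not bound the difference under either. In Fzd4 the average combines -0.49 under vehicle with 0.35 under VERCUR.

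The wider Wnt pathway was examined with a list of 94 genes by role, of which 83 were in the table and were tested. None was a DEG in VEH-CD against VEH-WT or over both treatments, in limma with Benjamini-Hochberg adjustment. At an unadjusted p under 0.05, 6 of the 83 differed under vehicle, 1 higher and 5 lower, and 9 over both treatments, 2 higher and 7 lower. Under vehicle 5.07% of all genes were higher and 6.73% lower at that p, and over both treatments 4.78% were higher and 4.86% lower. The median log2 fold change was -0.06 under vehicle, against -0.0028 over all genes.

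Among the ligands, 13 of 19 Wnt genes were tested, and Wnt7b, a ligand of vessel growth in the brain, had the highest level per length at 39.2. Their differences in VEH-CD against VEH-WT ran from -0.52 in Wnt2b to 0.28 in Wnt16, both genes of low level. Porcn, which acylates Wnt proteins, had 0.02, and Wls, which carries them to the surface, had 0.15. Of Norrin and the R-spondins, which amplify Wnt signals, 4 of 5 were tested, from -0.29 in Rspo1 to 0.25 in Rspo2, which had the highest level per length at 15.6. No ligand was a DEG.

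All 14 genes listed as co-receptors and receptor partners were tested, among them Smo, a Frizzled relative of the Hedgehog pathway rather than a Wnt co-receptor. Ryk, a Wnt-binding receptor related to tyrosine kinases, had the highest level per length at 18.4 and a difference of -0.06. The extremes were Ror1 at 0.57 (adjusted p = 0.428) and Ror2 at -0.61 (adjusted p = 0.438, limma), both Wnt5a receptors at low levels, with means of 17.6 and 39.4 normalized counts in the VEH-WT mice. Of 16 secreted and surface inhibitors, 12 were tested. Dkk3, a secreted protein of the Dickkopf family, had the highest level per length of the whole list at 446, and a difference of 0.09. Apcdd1, an inhibitor at the cell surface, was at 0.28 (adjusted p = 0.335) and Sfrp2, a secreted decoy receptor, at -0.39 (adjusted p = 0.563, limma). Znrf3 and Rnf43, the ligases that remove Frizzleds from the cell surface, were at -0.06 and -0.0048.

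Inside the cell, the 14 transducers covered a narrow range, from -0.20 in Dvl3, a Dishevelled, to 0.09 in Csnk1e, a casein kinase. Gsk3a, a kinase of the complex that marks beta-catenin for breakdown, had the highest level per length among them at 348 and a difference of 0.04. Of the 8 nuclear effectors, Pygo2 was highest at 51.0, and differences ran from -0.30 in Lef1 to 0.23 in Tcf7l1, both DNA-binding partners of beta-catenin. Of 7 target genes, Tnfrsf19 was highest at 50.9, and the extremes were Myc at 0.18 and Nkd2, a feedback inhibitor, at -0.46. The level of Nkd2 was 131 ± 17.7 (normalized counts, SD, n = 3) for VEH-WT and 94.7 ± 5.43 for VEH-CD, without overlap, with the smallest adjusted p of the list, 0.252 (limma). In the 7 planar cell polarity genes, with Prickle2 highest at 87.2, differences ran from -0.22 in Celsr3 to 0.03 in Vangl2.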

How the data were processed

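Cortical RNA of 12 mice was analysed, each mouse assigned to 1 of 4 groups of 3 from its sample label. Replicates are separate mice. Paired-end reads had been mapped by the authors, with STAR 2.5.3a on GRCm38, and they deposited normalized counts, that is reads per gene divided by 1 factor per sample. The counting program, the annotation and the normalization are not given in the sources used here. Low values were multiples of a fixed step in 100% of cases in every mouse (tolerance 0.1 of a read), which gives the depth. The values are not raw counts, so no count model was fitted. The authors' 2 tables of expression relative to VEH-WT were not used.

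Each normalized count had a pseudocount of 1 added and was put on the log2 scale. Of the genes, 17111 had a mean of 10 or more and were fitted in limma 3.58.1 (R 4.3.3). All 12 mice entered 1 fit of 4 group means with an intensity trend. The p values are two-sided, with Benjamini-Hochberg adjustment over all genes tested in each of 8 comparisons. The bounds for a DEG were an adjusted p of 0.05 and a fold change above 1.25 or below 0.75, and the interaction used the adjusted p alone. The fit was tested on simulated data.

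Lengths and positions came from GENCODE M21, in which 17181 of 17202 gene IDs were found, 16561 of them with the same version. The genes named are all Frizzleds, for each role of the Wnt list the gene of highest level per length and those of largest positive and negative difference in VEH-CD against VEH-WT, 3 deleted neighbours, and the 5 genes most like Fzd9. Limk1 is also named among the deleted genes, and Smo among the receptor partners. The members, lists and this rule were chosen with earlier results of these data known. Tried as alternatives were other pseudocounts (0.1, 5) and filters (none, a mean of 50), quantile normalization, median log2 ratio centring, genes with a CV under 20%, removal of single values, only the groups compared, no trend, sample weights, a replicate block, other thresholds, and each mouse left out.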

Additional observations from a re-analysis of the deposited data

Results flagged for a closer look

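For 3 members the mice of one group all moved one way and those of the other group all moved the opposite way. In Fzd4 every VEH-CD mouse was below the VEH-WT mean and every VERCUR-CD mouse above the VERCUR-WT mean, and likewise every VERCUR-WT mouse was below the VEH-WT mean and every VERCUR-CD mouse above the VEH-CD mean. The interaction, which tests both, was 0.84 on the log2 scale (adjusted p = 0.783, limma with Benjamini-Hochberg adjustment). In Fzd5 the treatment difference had opposite directions in this way in WT and CD mice, with an interaction of 0.67 (adjusted p = 0.816, limma). In Fzd7 the genotype difference did so under VEH and VERCUR, with an interaction of 0.40 (95% interval -0.04 to 0.83, adjusted p = 0.816, limma). None of the 3 passed the threshold, so the differences between groups are not shown. Of all genes tested, 6.05% had an unadjusted p under 0.05 for the interaction, as Fzd4 and Fzd5 did and Fzd7 did not. The share of all genes with such opposite directions was not counted, so the number of members is no result about the family. Samples far from the rest of their group were not searched for, since each group holds 3 mice.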

How the results depend on the processing

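Of 469 values recomputed under other settings, 456 kept their direction and their side of the threshold, and of 432 recomputed with 1 mouse left out, 425 did. Part of this agreement was fixed in advance. The other thresholds reuse the same fit, and a mouse left out does not change a difference between groups that it was not in. These tallies are thus no measure of stability by themselves. Fzd9 kept its calls in the genotype comparisons, and its difference from loss of 1 copy kept its side of 0.05, under every alternative run. Removal of single values in groups with a CV of 20% or more, which narrows the spread by construction, changed the counts: 2 Frizzleds other than Fzd9 were called in VEH-CD against VEH-WT, 1 in VERCUR-WT against VEH-WT and 2 for the interaction, each against 0. Of the Wnt list it called 3 genes in VEH-CD against VEH-WT (Nkd2, Ror1 and Ror2, named for being called there) and 2 over both treatments, against 0. Under the same setting Fzd6 in VEH-CD against VEH-WT reversed to -0.16, Fzd3 in VERCUR-CD against VERCUR-WT to -0.11 and the interaction of Fzd10 to 0.048. With sample weights, Fzd8 in VEH-CD against VEH-WT reversed to -0.054. None of these 4 was past the threshold. The number of genes called in VEH-CD against VEH-WT was 44, with 972 after removal of single values, 349 with sample weights, 81 among 11295 genes with a CV under 20%, 76 at an adjusted p under 0.1 and 30 with no trend. It was 24 without VEH-WT mouse 2, VEH-CD mouse 1 or VEH-CD mouse 3, 28 without VEH-WT mouse 3 and 71 without VERCUR-CD mouse 2. In VERCUR-CD against VERCUR-WT it was 25, with 448 after removal and 46 with weights, and in VERCUR-CD against VEH-CD 0, with 241 and 6. In VERCUR-WT against VEH-WT it was 0, with 649 after removal, and in VERCUR-CD against VEH-WT 34, with 840 and 140. Over both treatments it was 55, with 837 after removal and 182 with weights, and for the interaction 0, with 492 after removal. Fzd3, Fzd5, Fzd6 and Fzd10 have a CV of 20% or more in a group and gave no value under the CV filter.

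With 1 mouse left out, Fzd9 ranged from -1.34 to -1.08 in VEH-CD against VEH-WT, from -1.52 to -1.39 in VERCUR-CD against VERCUR-WT, from -1.41 to -1.28 over both treatments and from -0.020 to 0.13 in VERCUR-WT against VEH-WT, where the sign turned without VEH-WT mouse 2 and without VERCUR-WT mouse 1. It ranged from -0.33 to -0.076 in VERCUR-CD against VEH-CD and from -0.40 to -0.14 for the interaction. In VEH-CD against VEH-WT, Fzd1 ranged from -0.27 to -0.077, Fzd7 from -0.28 to -0.098, Fzd6 from -0.16 to 0.26 and Fzd8 from -0.076 to 0.15. Fzd3 in VERCUR-CD against VERCUR-WT ranged from -0.11 to 0.31, and Fzd5 over both treatments from -0.32 to -0.13. No Frizzled other than Fzd9 was called in any of the 8 comparisons in these fits. No Wnt gene was called in VEH-CD against VEH-WT or over both treatments, where alone they were counted.

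The replicate numbers of the labels do not pair the mice: over 18 pairs of the same number the correlation of deviations from group means was -0.35 to 0.27 with a median of 0.02, and 4 were over 0.1. With the replicate block, Fzd9 had a log2 fold change of -1.25 and an adjusted p of 0.00356 in VEH-CD against VEH-WT (limma), 40 genes were called there against 44, and no call on a Frizzled changed, nor on a Wnt gene there or over both treatments. Depth limits Fzd5 and Fzd10 most, with medians of 96.5 and 112.5 reads per mouse.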
